A study of Mus musculus with 22 samples.

Results

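The retinoid genes examined here were *Rarres1*, *Aldh1a1*, *Aldh1a2*, *Aldh1a3*, *Rarb*, *Rbp4*, *Crabp1*, *Rxrg* and *Cyp26b1*, 9 of the 30332 genes in the tables of the study, chosen by symbol for their part in retinoid metabolism and response. All 9 had a row at E14.5 and 8 at P9, where *Crabp1* was not analysed. RNA was sequenced from pools of 100 endocrine cells of the mouse pancreas, sorted by the red fluorescence of tdTomato, at E14.5 (5 *Isl1CKO* and 6 control libraries) and at P9 (6 *Isl1CKO* and 5 control libraries). *Isl1CKO* mice carried *Isl1* f/f, *Neurod1* Cre and the *Ai14* tdTomato reporter, and controls carried *Isl1* f/+ with the same Cre and reporter, although the sample records call them wild type. All groups thus shared Cre, reporter and at least 1 floxed *Isl1* allele, on a C57BL/6 background, in littermates of both sexes. Cre was driven by *Neurod1*, so recombination and the sort were both limited to cells that had expressed this endocrine gene. The pups at P9 were dissociated with collagenase before trypsin and the embryos with trypsin alone. The libraries are described as biological replicates.

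Vitamin A circulates as retinol bound to RBP4, and cells oxidise it first to retinal and then, by the ALDH1A enzymes, to retinoic acid. Retinoic acid binds receptors of the RAR family, which sit on DNA as pairs with RXR receptors, while CRABP proteins hold it in the cytoplasm and CYP26 enzymes break it down. In the embryo retinoic acid is known as a signal for pancreas and endocrine cell formation, and *Aldh1a3* is known as a gene that beta cells switch on when they lose their mature state.

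Retinoic acid receptors are known to bind repeats of a short half-site, and promoter windows from RefSeq (GRCm38.p6) were found for 8 of the 9 genes, all but *Aldh1a3*. Each window holds 250 bases before an annotated start of a gene and 50 after it. The *Rarb* window belongs to a start inside the gene, which spans 16430839 to 16819156 on chromosome 14. The half-site searched was AGGTCA, with the variant forms GGGTCA (another first base), AGTTCA (another base in the middle) and GGTTCA (both), on both strands, alone and as repeats in the same direction with 1, 2 or 5 bases between them. The 100 bases before the start are shown for *Rarb*, the textbook example of a retinoic acid response element, and for *Rarres1* and *Rbp4*, which were each called in a comparison described here. The sequences run 5′ to 3′ on the strand of the gene, which is the minus strand for all 3, and capitals mark half-sites on either strand.
Rarb (chr14:16575477-16575576): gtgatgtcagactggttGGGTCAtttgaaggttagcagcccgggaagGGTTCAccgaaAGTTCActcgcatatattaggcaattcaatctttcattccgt
Rarres1 (chr3:67515524-67515623): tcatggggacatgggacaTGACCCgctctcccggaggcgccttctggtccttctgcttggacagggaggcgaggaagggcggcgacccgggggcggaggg
Rbp4 (chr19:38125322-38125421): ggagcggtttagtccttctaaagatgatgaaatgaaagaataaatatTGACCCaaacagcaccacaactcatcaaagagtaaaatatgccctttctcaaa
The *Rarb* stretch held 3 half-sites, which begin at -83, -53 and -42 from the start, and the last pair forms a repeat with 5 bases between. A repeat of this kind was in 0.0974% of the 32851 mouse windows searched and in no other window of the members. *Rarres1* and *Rbp4* each had 1 half-site in the stretch shown, on the opposite strand, at -82 and -53. Another *Rbp4* window, chr19:38124762-38125061 before a different start of the gene, had none. At least 1 half-site was in 43.7% of all windows. Repeats with 1 or 2 bases between, in 0.222% and 0.268% of all windows, were in none of the members' windows. These matches are letters in a window and not measured binding.

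*Rbp4* was by far the most abundant of the 9 genes in every group, and *Rarres1* and *Aldh1a3* came next in *Isl1CKO* cells at P9. To compare genes, counts were scaled over all 22 libraries and divided by the length of each gene's exons. On this scale *Rbp4* stood at a level of 2612 ± 496 CPM per kb in the 6 controls at E14.5 (± SD here and below) and at 1373 ± 313 in the 5 *Isl1CKO* libraries. Its level at P9 was 724 ± 342 for the 5 controls and 1113 ± 454 for the 6 *Isl1CKO* libraries. In none of the 4 groups did its libraries overlap with those of the next gene. At P9 in *Isl1CKO*, *Rarres1* followed with a level of 33.2 ± 29.8 CPM per kb and *Aldh1a3* with 6.31 ± 4.17 (SD, n = 6 for both), and the libraries of this pair overlapped. Every *Isl1CKO* library at P9 had more *Aldh1a3* than the highest library of *Aldh1a1*, the gene below it, whose level was 0.445 ± 0.647. This separation depended on the length used, and with the longest transcript as length the libraries overlapped. *Aldh1a3* then stood at 1.83 in *Isl1CKO* library 4, and *Aldh1a1* at 2.58 and 2.77 in libraries 2 and 5. In the other 3 groups *Rarres1* and *Aldh1a3* had mean levels between 0.0666 and 2.27. The other 6 genes had means of at most 0.445 CPM per kb in every group, and apart from the separations named here neighbours in the order of genes overlapped. Ordered by group, the mean levels of *Rarres1* and of *Aldh1a3* ran from *Isl1CKO* at P9 through *Isl1CKO* and controls at E14.5 to controls at P9, and those of *Rbp4* from controls and *Isl1CKO* at E14.5 through *Isl1CKO* to controls at P9, with overlap between all neighbours in these orders.

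**Figure D1:**
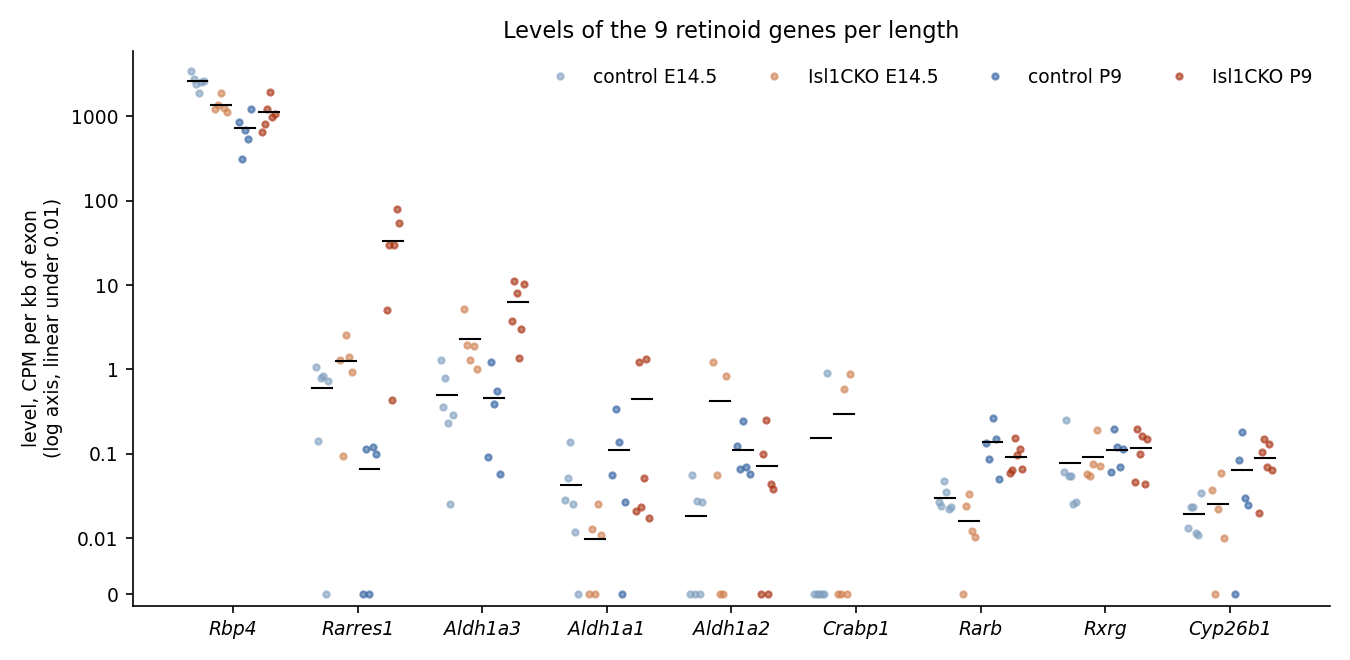
Level of each of the 9 genes in CPM per kb of exon, on a log axis that is linear under 0.01, with 1 point per library and a bar at the mean of each group. *Rbp4* lies between 309 and 3416 in all libraries, and *Rarres1* reaches 78.9 in 1 *Isl1CKO* library at P9.

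The deletion and the libraries were checked first. Exon counts of *Isl1* were lower in *Isl1CKO* at E14.5 (log2 fold change -0.48, SE 0.079, adjusted p = 0.00633 by edgeR) and higher at P9 (1.08, SE 0.21, adjusted p = 0.00813 by edgeR), and they include any exon that the floxed allele keeps. Such counts do not measure the protein, which the paper did not detect by staining in nuclei of *Isl1CKO* islets. Libraries held 8477482 to 13580985 counts. At P9 the 8 hormone genes took 51.1% to 56.5% of the counts in controls and 14.0% to 30.2% in *Isl1CKO*. All 9 endocrine markers were detected at both ages. Scaled counts in the following were brought to the mean library of an age with TMM factors. A gene was called when edgeR's quasi-likelihood test gave a Benjamini-Hochberg adjusted p under 0.05 over all genes tested, and 3 of the 9 genes had enough counts for a test at each age. These were *Rarres1*, *Aldh1a3* and *Rbp4*.

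At E14.5 *Rbp4*, which encodes the carrier of retinol in blood, fell in *Isl1CKO* endocrine cells, and no other of the 3 retinoid genes tested was called. The gene lies on chromosome 19 of GRCm38 from 38116629 to 38125281. The 6 control libraries held between 40860 and 73759 scaled counts of *Rbp4* with a median of 55783, and the 5 *Isl1CKO* libraries held 26621, 29210, 41704, 27320 and 24357. The groups overlapped only through *Isl1CKO* library 3, which was above the lowest control. *Rbp4* was 1.90-fold lower in *Isl1CKO* (log2 fold change -0.93, SE 0.15, adjusted p = 0.00466 by edgeR). In pools of cells, fewer cells of a type and less RNA per cell cannot be told apart. Of all genes tested at E14.5, 0.827% were called lower and 0.602% higher, and control and *Isl1CKO* libraries were fully separated in 1.29% with *Isl1CKO* lower and in 1.20% with *Isl1CKO* higher. None of the 3 genes was among the last 2 sets.

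*Aldh1a3*, which encodes an enzyme that makes retinoic acid, lies on chromosome 7 from 66390890 to 66427517. Its scaled counts at E14.5 ran from 1.89 to 96.3 in controls with a median of 24.3. The *Isl1CKO* libraries held 387, 147, 97.1, 143 and 75.3. All of these values but that of library 5 were above the highest control. The log2 fold change was 2.19 (SE 0.66, adjusted p = 0.153 by edgeR), which did not pass over all genes. DESeq2 called the same gene, with an adjusted p of 0.0236.

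*Rarres1*, a gene known to respond to retinoids, lies on chromosome 3 from 67478972 to 67515523. Its scaled counts at E14.5 ran from 0 to 22.7 in controls with a median of 16.4, and were 27.9, 2.02, 55.2, 29.8 and 20.1 in *Isl1CKO*. The groups overlapped, and the log2 fold change of 1.08 (SE 0.83, adjusted p = 0.697 by edgeR) was not called.

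**Figure D2:**
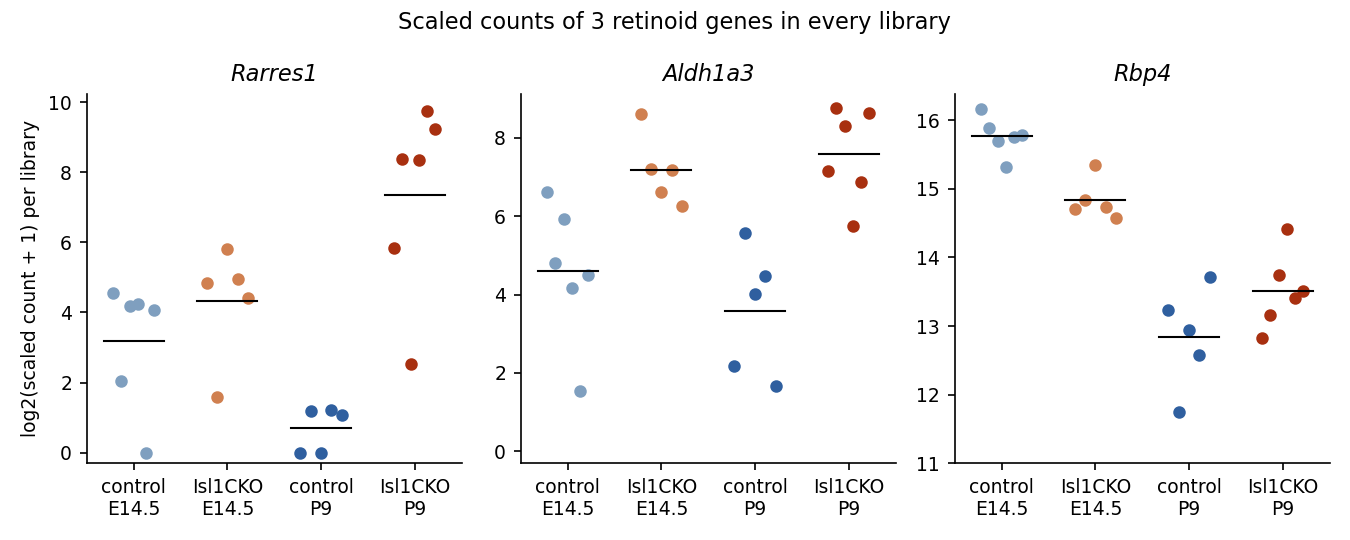
log2(scaled count + 1) of *Rarres1*, *Aldh1a3* and *Rbp4* with 1 point per library and a bar at the mean of each group. Counts were scaled within each age, and the axis of *Rbp4* starts at 11. All 6 *Isl1CKO* libraries at P9 are above all 5 controls for *Rarres1* and *Aldh1a3*.

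Summed markers of other cell types were compared between the groups at E14.5. The summed scaled counts of 5 endocrine progenitor markers, led by *Fev* and *Vim*, were 4221 to 6821 in controls and 8515 to 11916 in *Isl1CKO*, and 2 of the 5 rose. For hepatoblast markers, of which 7 of 8 had counts and 2 rose, the sums were 466 to 1288 and 1076 to 3615. *Ahsg*, a defining liver gene, had no row. The 7 macrophage markers summed to 450 to 693 in controls and 440 to 1324 in *Isl1CKO*, with the highest sums in libraries 4 and 3, and 0 of the 4 tested were called. Mesenchymal markers, led by *Col1a2* and *Dcn* and with *Barx1*, *Nkx3-2* and *Lum* without a row, summed to 230 to 791 in controls and 164 to 317 in *Isl1CKO*, with 0 of the 3 tested called. The 8 hormone genes took 2.44% to 6.17% of the counts in controls and 0.710% to 2.49% in *Isl1CKO*. Without *Isl1CKO* libraries 3, 4 and 5, a choice made after the data were seen, *Rbp4* was still called lower. That fit kept only *Isl1CKO* libraries 1 and 2. It dropped library 3, through which the groups overlapped for *Rbp4*, so it is no test of these cell types. The part of these cell types in the values of *Rbp4*, *Aldh1a3* and *Rarres1* was not tested.

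At P9 *Rarres1* and *Aldh1a3* rose in *Isl1CKO* endocrine cells, each without overlap between the groups, while *Rbp4* was not called. *Rarres1* was nearly undetected in controls, with 0, 1, 0, 1 and 1 counts, or 0 to 1.33 scaled counts. The *Isl1CKO* libraries ran from 4.79 scaled counts in library 3 to 866 in library 5, with a median of 329. Library 1 held 55.8, and libraries 2, 4 and 6 held 331, 328 and 601, so that the spread within *Isl1CKO* was wide. The ratio of the summed counts, 2617 against 3, was 536 after scaling, with a 95% interval of 183 to 2601 that covers counting error only. The fitted log2 fold change was 8.76 (SE 1.27, adjusted p = 0.000798 by edgeR), a value that depends on how the model treats counts of 0. *Rarres1* had enough counts for a test only through the *Isl1CKO* libraries.

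*Aldh1a3* was present at low levels in controls at P9, with scaled counts of 3.49, 46.6, 15.1, 21.3 and 2.17. In *Isl1CKO* they ran from 52.8 to 434 with a median of 227. The lowest *Isl1CKO* library, 4, was only slightly above the highest control, 2. *Aldh1a3* was 13.7-fold higher in *Isl1CKO* (log2 fold change 3.77, SE 0.77, adjusted p = 0.00927 by edgeR). Without control library 2 the log2 fold change was 4.53. The controls held 3, 37, 13, 16 and 2 counts of *Aldh1a3*. Like *Rarres1*, it thus had enough counts for a test only through the *Isl1CKO* libraries. *Isl1CKO* library 3, with the fewest *Rarres1* counts of its group, held 312 scaled counts of *Aldh1a3*.

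For *Rbp4* at P9 the controls held 9592, 3450, 7870, 6088 and 13469 scaled counts. The *Isl1CKO* libraries held between 7231 and 21889, with a median of 11314. The groups overlapped, and the log2 fold change was 0.62 (SE 0.31, adjusted p = 0.333 by edgeR).

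Of all genes tested at P9, 2.66% were called higher and 2.14% lower, and the groups did not overlap in 2.81% with *Isl1CKO* higher and in 2.57% with *Isl1CKO* lower. *Rarres1* and *Aldh1a3* belong to both sets of higher genes. Both had enough counts for a test only through the *Isl1CKO* libraries, which favours a higher value there. The shares therefore do not measure how unusual these genes are. With TMM scaling 372 genes were higher and 299 lower. With scaling by total counts alone 3824 were higher and 151 lower, and the median over all genes went from 0.023 to 0.68. With totals without the hormone genes 292 were higher and 460 lower, at a median of -0.091. *Rarres1* and *Aldh1a3* were called higher under each of these scalings. The log2 fold change of *Rbp4* was 1.28 with total counts alone (adjusted p = 0.011 by edgeR).

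At P9 the 9 pancreatic endocrine markers, led by *Ins2* and *Ins1*, summed to 6352575 to 8147069 scaled counts in controls and 1313594 to 3047961 in *Isl1CKO*, with 5 lower and 2 higher. Endocrine progenitor markers summed to 147 to 435 scaled counts in controls and 722 to 3063 in *Isl1CKO*, and 2 of the 4 tested rose. Among the *Isl1CKO* libraries, library 5, with the most *Rarres1*, had the lowest of these sums. Endothelial markers, led by *Esam* and *Pecam1*, summed to 14.1 to 61.7 and 94.6 to 210, with 0 of the 1 tested called. Ductal markers summed to 4239 in *Isl1CKO* library 3, against 595 to 1745 in the other *Isl1CKO* libraries and 544 to 873 in controls, with 0 of 4 called. Acinar, mesenchymal, macrophage, Schwann cell and hepatoblast sums overlapped between the groups, and no marker of these lists was called. The part of these cell types in the rise of *Rarres1* and *Aldh1a3* was not tested.

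The effect of *Isl1CKO* on *Rarres1* and on *Rbp4* differed between the ages in a joint fit of all 22 libraries, whereas for *Aldh1a3* no difference was found. The effect at P9 minus the effect at E14.5, on the log2 scale, was 7.76 for *Rarres1* (SE 1.56, adjusted p = 0.0081 by edgeR). This value depends on how the model treats the controls at P9, which held 3 counts of *Rarres1* in all. For *Rbp4* the difference was 1.55 (SE 0.38, adjusted p = 0.0299 by edgeR), from lower in *Isl1CKO* at E14.5 to a positive value at P9 that was not called. *Aldh1a3* had a difference of 1.60 (SE 1.04, adjusted p = 0.511 by edgeR). Of all genes in this fit 2.08% were called, 212 with a higher effect at P9 and 147 with a lower one, and the split was 3109 and 90 with total counts alone and 165 and 239 without the hormone genes. *Rarres1* lost its call with another dispersion estimate (adjusted p = 0.18 by edgeR) and without *Isl1CKO* libraries 3, 4 and 5 of E14.5. *Rbp4* lost its call without any 1 of 6 libraries, named in the section on processing.

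In control cells *Rbp4* fell between E14.5 and P9. The 6 libraries at E14.5 had levels of 1888 to 3416 CPM per kb with a median of 2568, and the 5 at P9 had 859, 309, 696, 540 and 1216. The ages did not overlap, and *Rbp4* was 3.61-fold lower at P9 (log2 fold change -1.85, SE 0.28, adjusted p = 1.97e-05 by edgeR). With total counts alone it stood at -3.02, where the median of all genes was -1.21. *Rarres1* had a log2 fold change of -3.05 (SE 1.35, adjusted p = 0.0894 by edgeR) and *Aldh1a3* of -0.13 (SE 0.75, adjusted p = 0.921 by edgeR), and the sign of the latter depended on single libraries. Between the control groups 15.2% of all genes were called lower at P9 and 15.8% higher, which is 2626 and 2721 genes, against 10032 and 604 with total counts alone. Age, the method of dissociation and the count table cannot be told apart in this comparison.

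The other 6 genes had too few counts for a test at either age, and their counts were uneven between libraries. *Aldh1a1* and *Aldh1a2* encode the other two enzymes that make retinoic acid from retinal. At P9 *Aldh1a1* had 54 and 65 counts in *Isl1CKO* libraries 2 and 5 and at most 2 in the other 4, against 2, 11, 5, 0 and 1 in controls. At E14.5 it had between 0 and 11 counts in any library.

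*Aldh1a2* had 42 and 35 counts in *Isl1CKO* libraries 1 and 5 at E14.5 and at most 2 in the other 3, with 0 to 2 in controls. At P9 no library passed 5 counts. The 2 enzymes were thus each high in a pair of *Isl1CKO* libraries, at different ages, with the rest of the group in the range of controls.

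*Crabp1*, which encodes a cytoplasmic carrier of retinoic acid, had 12 counts in control library 6 and 8 and 13 counts in *Isl1CKO* libraries 3 and 5 at E14.5, and 0 in the other 8 libraries. *Isl1CKO* library 5 therefore held counts of both *Aldh1a2* and *Crabp1*. The receptor genes were low throughout. *Rarb* had 0 to 4 counts at E14.5 and 2 to 10 at P9, in overlapping ranges of control and *Isl1CKO*. After scaling, its level in every control library at P9 was above all controls at E14.5, but narrowly. Control library 5 of P9 stood at 0.04995 CPM per kb and control library 3 of E14.5 at 0.04735. Raw counts of the controls overlapped, with 2 to 4 at E14.5 and 2 to 10 at P9. *Rarb* was called higher at P9 in controls by DESeq2 and by edgeR without the filter on low counts. In the main fit 15.8% of all genes were called higher there.

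*Rxrg*, the RXR gene of the list, had 1 to 9 counts at E14.5 and 1 to 4 at P9. *Cyp26b1*, which encodes an enzyme that degrades retinoic acid, had 0 to 5 counts at E14.5 and 0 to 7 at P9. For these 6 genes a difference between *Isl1CKO* and control was not detectable at this depth. Reads of *Rarb* cannot be told apart from those of *Top2b*, nor reads of *Aldh1a1* from those of *C730002L08Rik*, where the genes overlap on opposite strands, since the counting did not use strand.

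Of 47 other retinoid genes, 24 had enough counts for a test at E14.5, and *Ttr* rose and *Meis2* fell in *Isl1CKO*, beside 0.602% of all genes called higher and 0.827% lower. The list was chosen with earlier results of these data known. The shares given here and below thus do not test it for an excess of calls. *Ttr* encodes transthyretin, the protein that carries RBP4 in blood. Its scaled counts were 48470 to 60642 in controls with a median of 54783, and 98467, 98432, 96346, 75585 and 101020 in *Isl1CKO*. Every *Isl1CKO* library was above every control, and the log2 fold change was 0.80 (SE 0.076, adjusted p = 8.72e-05 by edgeR). The genes for both proteins of the circulating retinol complex thus went in opposite directions at E14.5.

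*Meis2*, a homeobox gene induced by retinoic acid in limb buds, ran from 9862 to 11549 scaled counts in controls at E14.5 with a median of 10269. In *Isl1CKO* it held 4949, 5274, 4233, 4712 and 4226, all under the lowest control (log2 fold change -1.16, SE 0.073, adjusted p = 2.96e-06 by edgeR). The 4 receptor genes *Rara*, *Rarg*, *Rxra* and *Rxrb* were tested and none was called, with log2 fold changes of -0.059, 0.55, 0.093 and 0.15. Of 9 enzymes of retinol oxidation and retinal reduction none was called. The median log2 fold change of the 24 genes was 0.12, against -0.0045 over all genes tested.

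At P9 19 of the 47 were tested, of which *Ttr* and *Lxn* rose and *Dhrs4* fell in *Isl1CKO*, beside 2.66% of all genes called higher and 2.14% lower. As at E14.5, these shares are no test of a list chosen with earlier results known. *Ttr* had 36105, 13851, 23019, 43620 and 28174 scaled counts in controls and 48043 to 74876 in *Isl1CKO* with a median of 61210. The groups did not overlap, and the log2 fold change was 1.07 (SE 0.23, adjusted p = 0.0136 by edgeR). *Dhrs4*, which encodes a reductase of retinal and other carbonyls, had 743, 632, 845, 1039 and 1040 scaled counts in controls and 253 to 561 in *Isl1CKO*, without overlap (log2 fold change -1.11, SE 0.24, adjusted p = 0.0149 by edgeR). *Dhrs4* lost its call with total counts alone, where its log2 fold change was -0.44.

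The receptor genes *Rxra* and *Rxrb* were the only 2 of 4 tested at P9, and neither was called. The median of the 19 genes was 0.29, against 0.023 over all genes tested. In the joint fit *Meis2* was the 1 gene of 26 whose effect was called different between the ages, beside 2.08% of all genes. Its difference was 1.09 (SE 0.20, adjusted p = 0.00447 by edgeR). This call was lost without *Isl1CKO* libraries 3, 4 and 5 of E14.5 and with the replicate block (adjusted p = 0.0731 by edgeR).

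**Figure D3:**
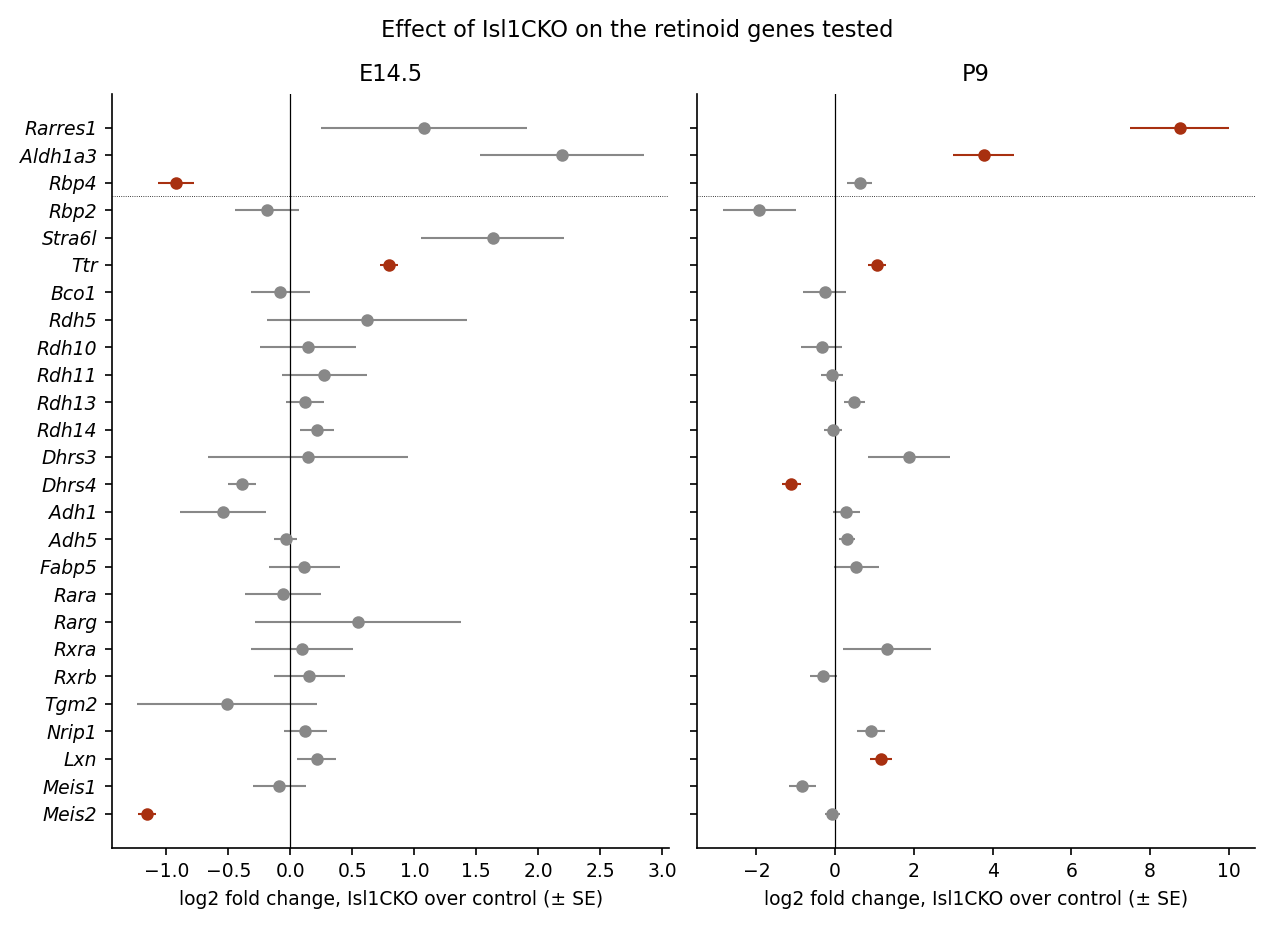
log2 fold change of *Isl1CKO* over control with its standard error, at E14.5 and at P9, for the members tested (above the dotted line) and the other retinoid genes reported here, with separate horizontal scales. Genes called at an adjusted p under 0.05 are red, which are *Rbp4*, *Ttr* and *Meis2* at E14.5 and *Rarres1*, *Aldh1a3*, *Ttr*, *Dhrs4* and *Lxn* at P9.

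In control cells 2 of 26 of these retinoid genes were called higher at P9 and 6 lower, beside the 15.8% and 15.2% of all genes, so the list as a whole was called about as often as the background. Among those lower at P9 were *Rara* (-2.30), *Meis2* (-1.89), *Bco1* (-1.22), *Lxn* (-1.02) and *Adh5* (-0.81) on the log2 scale, with adjusted p between 1.82e-09 and 0.033 by edgeR. *Adh1*, an alcohol dehydrogenase gene, was higher by 4.01 (SE 0.38, adjusted p = 2.76e-08 by edgeR). *Dhrs4* was higher by 0.65 (adjusted p = 0.0135 by edgeR), but stood at -0.53 with total counts alone and was not called without the filter on low counts. The call of *Bco1*, the gene for a beta-carotene oxygenase, was lost without control library 1, 5 or 6 of E14.5 or control library 4 or 5 of P9, and with the replicate block (adjusted p = 0.0514 by edgeR). Without control library 1 of P9 *Rara* stood at -3.31.

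The genes next to *Rarres1* were compared with it. Of its 6 nearest tested neighbours, with start sites 51.6 to 1489 kb away, none was called at E14.5, where log2 fold changes ran from -0.39 to 0.80. At P9 all 6 were positive, from 0.66 to 1.16, and *Lxn* was called (1.16, SE 0.28, adjusted p = 0.0246 by edgeR). *Lxn* encodes latexin, a protein related to that of *Rarres1*. Its scaled counts at P9 were 206, 229, 124, 137 and 141 in controls and 248 to 584 in *Isl1CKO*, without overlap. Leaving out control library 3, 4 or 5 or *Isl1CKO* library 3 or 6 ended this call. *Lxn* lies within *Gfm1* on the opposite strand, and *Gfm1* stood at 1.10 on the log2 scale (adjusted p = 0.0664 by edgeR), so where they overlap their reads cannot be told apart in counts made without strand. The replicate block also ended the call of *Lxn* (adjusted p = 0.115 by edgeR).

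Of the 6 neighbours of *Aldh1a3*, with start sites 39.2 to 412 kb away, none was called at E14.5. At P9 *Adamts17* was lower in *Isl1CKO* (log2 fold change -2.51, SE 0.68, adjusted p = 0.0473 by edgeR), a call that leaving out 1 library ended in 9 of 11 cases, with adjusted p up to 0.129, as did total counts alone, no filter on low counts and the replicate block (adjusted p = 0.205 by edgeR). *Lrrk1*, the nearest, had a log2 fold change of 2.35 (SE 0.83, adjusted p = 0.128 by edgeR).

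**Figure D4:**
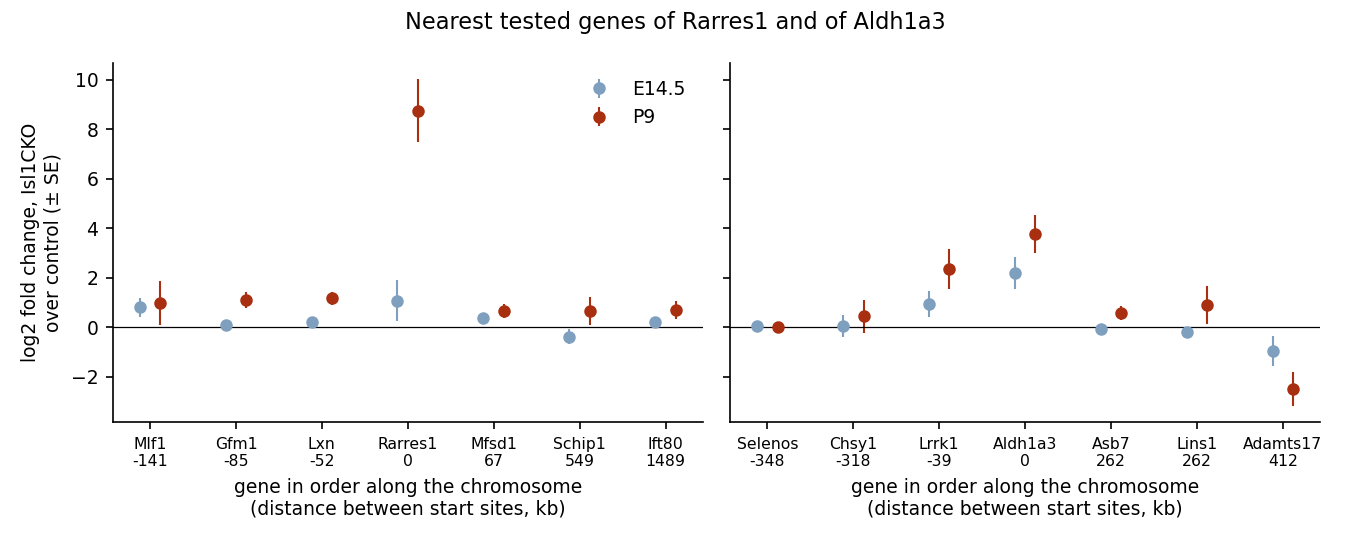
log2 fold change of *Isl1CKO* over control with its standard error for *Rarres1* and *Aldh1a3* and the 3 nearest tested genes on each side, in their order along the chromosome, with the distance between start sites in kb under each name. At P9 *Rarres1* stands at 8.76 and its neighbours between 0.66 and 1.16.

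The genes whose log2(CPM + 1) was most like that of *Rarres1* over the 22 libraries, among 11454 genes, were *Gm14964* (Pearson r = 0.884), *Tspan33* (0.876), *Trim9* (0.869), *Rpl3* (0.867) and *Cidea* (0.859). For *Aldh1a3* they were *1810006J02Rik* (0.877), *Psma2* (0.811), *Gucy1a1* (0.81), *Ckb* (0.81) and *Efcab10* (0.808). The points share ages, genotypes and depth, and the values describe likeness only.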

How the data were processed

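Libraries of 100 sorted cells, made with a low-input kit, were sequenced on a NextSeq 500. As the study's methods state, the authors trimmed reads with cutadapt 1.18 and Trimmomatic, removed ribosomal reads with Bowtie 1.2.2 and SortMeRNA, mapped the rest to GRCm38 with STAR 2.7.0c and counted genes with Rsubread at its default settings, which do not use strand, without multi-mapping reads. The deposited values are raw counts per Ensembl gene in 1 table per age, in which every gene has 10 or more counts in all.

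Here edgeR 4.0.16 under R 4.3.3 was run on the counts (TMM, filterByExpr, glmQLFit, glmQLFTest, Benjamini-Hochberg) within each age, and in 1 model over all 22 libraries for the 24296 genes in both tables, of which 17265 were tested. The tests at E14.5 and P9 covered 15960 and 13964 genes. The SE is the log2 fold change divided by the root of F. Exon lengths and positions came from GENCODE M21 (27078 and 27456 gene IDs matched), and promoters from RefSeq. DESeq2 1.42.0, other scalings, no filter, the replicate block, another dispersion fit and leaving out libraries were the alternatives. Scripts were tested on simulated data. Figures used matplotlib 3.10.9. The genes named are the members, *Isl1*, pathway genes called in a comparison (up to 8 each), 3 tested neighbours a side, the 5 genes most alike (mean scaled count at least 50), and leading markers; others named were chosen after their values were seen, and 1 gene that the rule names is not reported here, though it counts in the tests and lists. The members and lists were chosen with earlier results of these data known. Intervals from counts cover counting error only.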

Additional observations from a re-analysis of the deposited data

Results flagged for a closer look

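In 34 checks of a gene in a group of libraries for 1 value far from the rest, 6 values stood out. Chance flags about 1 in 20 groups when values follow a normal distribution. Low and skewed counts do not, so the 6 cannot be set against that rate. At E14.5, *Aldh1a3* stood at 387 scaled counts in *Isl1CKO* library 1, against 147 in the next library of its group. *Rbp4* stood at 41704 in *Isl1CKO* library 3, against 29210 in the next, and this was the library that overlapped with controls. The other 4 rest on few counts. They were *Aldh1a1* at 11.1 in control library 3, *Crabp1* at 11.8 in control library 6 with 0 in the other controls, and *Rxrg* at 9.31 in control library 2 and at 7.2 in *Isl1CKO* library 4.

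The effect of *Isl1CKO* differed between P9 and E14.5 for 2 members by the test of the difference itself. The difference of the log2 fold changes was 7.76 for *Rarres1* (adjusted p = 0.0081 by edgeR) and 1.55 for *Rbp4* (adjusted p = 0.0299 by edgeR). The value of *Rarres1* depends on how the model treats the controls at P9, which held 3 counts of it in all. Both calls were lost under some of the alternatives given below.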

How the results depend on the processing

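The calls of *Rbp4* at E14.5 and of *Aldh1a3* at P9 held under every alternative run, with adjusted p up to 0.0369 and 0.0291. *Rarres1* at P9 held under every alternative in which it was tested (adjusted p up to 0.0112), but without *Isl1CKO* library 1, 2, 4, 5 or 6 it had too few libraries with counts to be tested, so 1 to 2 members were called with 1 library left out. At E14.5 228 genes were called, against 662 by DESeq2 (2 members, with *Aldh1a3*), 42 without *Isl1CKO* libraries 3, 4 and 5, and 114 to 227 with 1 library left out, the lowest without *Isl1CKO* library 5, with 147 and 146 without *Isl1CKO* libraries 2 and 3. At P9 671 were called, against 1695 by DESeq2, 3975 with total counts alone, 1062 without trended dispersions, and 467 to 682 with 1 library left out. The difference between the ages was called for 359 genes, against 967 by DESeq2, 3199 with total counts alone, 57 without *Isl1CKO* libraries 3, 4 and 5 of E14.5 (0 members by edgeR, with adjusted p of 0.093 and 0.173 for *Rarres1* and *Rbp4*), and 219 to 484 with 1 library left out, the lowest without *Isl1CKO* library 1 of E14.5, with 227 without library 3 (1 to 2 members). It held 1 member without trended dispersions, *Rbp4*. *Rbp4* lost this call without control library 1 or *Isl1CKO* library 1, 2, 4 or 5 of E14.5 or control library 4 of P9, with adjusted p up to 0.0641. Between the control groups 5347 genes were called, against 10636 with total counts alone and 4755 to 5649 with 1 library left out. DESeq2 called 3 members there (*Rarb*, *Rarres1* and *Rbp4*), total counts alone 2 (*Rarres1* and *Rbp4*), no filter 2 (*Rarb* and *Rbp4*) and leaving out 1 library 1 to 2, with *Rarres1* added without *Isl1CKO* library 3 of P9. The log2 fold change of *Aldh1a3* there, -0.13, ran from -0.89 to 0.42 with 1 library left out, and became 0.42 and 0.07 without control libraries 1 and 3 of E14.5 and 0.13 and 0.16 without control libraries 1 and 5 of P9, and that of *Dhrs4* became -0.53 with total counts alone. What caused these changes was not tested.

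Replicate numbers do not pair the libraries: same-numbered control and *Isl1CKO* libraries had correlations of deviations of -0.051 to 0.038 at E14.5 and -0.026 to 0.054 at P9. With the replicate block 134 genes were called at E14.5, 333 at P9 and 130 for the difference between the ages (1 member, *Rarres1*, with an adjusted p of 0.089 for *Rbp4* by edgeR), and *Aldh1a3* stood at 0.09 between the control groups. The block also ended the calls of *Meis2* for the difference between the ages, of *Lxn* and *Adamts17* at P9 and of *Bco1* between the control groups, and no other call of a retinoid gene named here. The planned legacy fit was the default of this edgeR version and gave the same values; the fit without trended dispersions and the one without 3 libraries were added after seeing the data.

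The other 6 members were removed by the filter on low counts, which limits the statements on them.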
